A study of Mus musculus with 24 samples.

Results

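The genes described here are 40 genes of the lysosome and of the proton pump that acidifies it, followed through 4 days of dendritic cell culture. They were taken by symbol from a list and kept if their mean raw count over all libraries was at least 10, and all 40 were found among the 55487 genes of the table and passed that limit. By role they were 11 cathepsins and other proteases, 10 glycan and lipid hydrolases and lipid-handling proteins, 5 membrane proteins and regulators, and 14 proton pump genes, of which 6 belong to or accompany the membrane sector V0 and 8 to the cytosolic sector V1. Messenger RNA was measured in dendritic cells grown from mouse bone marrow with 50 ng/mL GM-CSF, the growth factor that turns marrow progenitors into these cells. Marrow came from mice of both sexes aged 8 to 10 weeks, with no sex given per animal. All mice were homozygous for a floxed allele of Arpc4, whose product is part of the Arp2/3 complex that starts branched actin filaments. Mice called WT here lacked the CD11c-Cre transgene, and mice called KO here carried it in the heterozygous state. Cells were collected on days 7, 8, 9 and 10 from 3 mice per genotype, giving 8 groups and 24 libraries. CD11c-Cre recombines only in cells that express CD11c, so cells without CD11c kept their floxed alleles in KO cultures too. Cells were replated on days 4 and 7, only cells in suspension were collected, and more than 90% of them were CD11c-positive by flow cytometry according to the labels.

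Lysosomes are acidic organelles in which proteases, glycosidases and lipases digest material taken up from outside or delivered by autophagy. The vacuolar proton pump holds their lumen acid: its V1 sector hydrolyses ATP, and its V0 sector carries protons across the membrane. In dendritic cells, cathepsins and the thiol reductase GILT cut and unfold antigen and trim the invariant chain, so that peptides can be loaded on MHC class II molecules, and mature dendritic cells are known to tune acidification and proteolysis. The transcription factors TFEB and TFE3 bind E-box sequences in the promoters of many of these genes.

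The promoters of the members were read for that E-box as a description. RefSeq promoter windows on GRCm38.p6, running from 250 bases before to 50 bases after a transcript start, were found for 33 of the 40 members. The letters TCACGTG on either strand, which contain the shorter E-box CACGTG, were in a window of 13 of these 33 members (39.4%) and of 4.29% of the 27025 genes with a window. CACGTG alone was in 14 of the 33 members (42.4%) and in 8.09% of all genes with a window. These genes were taken whether or not they were expressed in these cells. The 4 stretches printed here are the 150 bases before the start, and capitals mark TCACGTG or its reverse complement CACGTGA. They show a lysosomal membrane protein with 4 capital runs on the plus strand (Lamp1, chr8:13159011-13159160), a V0 gene with 2 on the minus strand (Atp6v0b, chr4:117887330-117887479), a hydrolase with 1 on the plus strand (Glb1, chr9:114400928-114401077), and the member whose RNA fell most in WT, whose stretch on the minus strand holds none (Lipa, chr19:34527475-34527624).
Lamp1: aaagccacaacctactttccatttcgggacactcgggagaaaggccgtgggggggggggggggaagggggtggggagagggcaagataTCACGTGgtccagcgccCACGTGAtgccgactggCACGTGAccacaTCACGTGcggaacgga
Atp6v0b: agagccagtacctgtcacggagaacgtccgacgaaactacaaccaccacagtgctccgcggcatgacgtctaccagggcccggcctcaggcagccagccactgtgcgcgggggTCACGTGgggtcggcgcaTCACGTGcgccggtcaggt
Glb1: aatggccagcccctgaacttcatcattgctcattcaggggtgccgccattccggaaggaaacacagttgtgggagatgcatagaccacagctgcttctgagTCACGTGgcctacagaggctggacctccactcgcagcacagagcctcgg
Lipa: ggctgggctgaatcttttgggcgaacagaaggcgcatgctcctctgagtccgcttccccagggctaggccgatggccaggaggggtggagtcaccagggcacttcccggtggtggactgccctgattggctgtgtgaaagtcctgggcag
In Lamp1 the runs began 62 to 16 bases before the start, in Atp6v0b 37 and 19 bases before it, and in Glb1 49 bases before it. Of the 33 matched members, 18 fell from day 7 to day 10 in both genotypes, and 10 of these 18 held TCACGTG in a window. Of the other 15, 3 held it, namely Atp6v0b, Atp6v0d1 and Atp6v0e, all of the V0 sector. A match of letters is a description and not a binding site. Whether these letters have a part in the day changes was not tested.

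Each library held between 19952047 and 31049798 counts. Expression per library is given as CPM, which puts counts of all libraries on the same total after TMM scaling, with WT values in the order of mice 63, 65 and 66 and KO values in the order of libraries labelled 64, 67 and 68. The targeted gene, Arpc4, was at 188 to 270 CPM in WT and 155 to 231 CPM in KO, and on each day every KO library was below every WT library. Much of it remained in KO: the group means on days 7 to 10 were 192, 260.2, 228 and 219.9 CPM in WT and 169, 228, 201 and 181 CPM in KO. Dendritic cell markers were present, with 13 or 14 of 14 above 1 CPM in every group. So were macrophage and monocyte markers, with 13 of 14 above 1 CPM in every group. On day 7 the latter summed to 4074 to 4290 CPM in WT and 4517 to 5206 CPM in KO. Dendritic cell markers then summed to 2853 to 3566 CPM in WT and 3221 to 3949 CPM in KO. On day 10 the dendritic cell sums were the higher in both genotypes. Markers of T and NK cells summed to at most 11.2 CPM, of B cells to at most 7.02 CPM and of erythroid cells to at most 1.29 CPM in any library, while neutrophil granule markers summed to 3201 to 7359 CPM. Some libraries stood apart from the others of their group in both genotypes. In KO, the library labelled 67 was the lowest of its group for 32, 37 and 37 of the 40 members on days 7, 8 and 9. The library labelled 64 was the lowest for 37 on day 10. In WT, mouse 63 was the lowest for 34 members on day 10. On day 9, mouse 66 was the lowest for 26 members and mouse 65 the highest for 32. The Y-linked gene Ddx3y was high (56.5 to 83.9 CPM) in 1 library of each group and at most 0.136 CPM in the others. In WT the high library was mouse 63 on every day, but in KO it was the library labelled 64 on days 7 and 9, 68 on day 8 and 67 on day 10, so KO numbers do not follow an animal across days in this measure.

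Lysosomal transcripts were among the most abundant in these cells. Compared per transcript length as TPM, Psap, the precursor of the saposins that present lipids to hydrolases, averaged 27591 TPM over the 24 libraries and ranked 2 in the table. The cysteine protease gene Ctss (9807 TPM), the aspartic protease gene Ctsd (9072 TPM) and Ctsb (4519 TPM) ranked 8, 9 and 18. Psap held 40.3% of the TPM of all members, and these 4 genes held 74.4%. At the other end, Atp6v1h (29.4 TPM), Tfeb (32.3 TPM), Mcoln1 (33.8 TPM) and Tfe3 (40.3 TPM) were the lowest, so transcripts of the regulators were far fewer per length than those of the main proteases. Of the 14 pump genes, 13 lay between, from Atp6ap1 at 548 TPM and Atp6v0d1 at 521 TPM down to Atp6v1d at 87.4 TPM. Together the 40 genes took 8.63% to 9.02% of all counts in WT on day 7 and 5.15% to 6.06% on day 10. In KO they took 7.22% to 8.53% on day 7 and 3.98% to 6.32% on day 10. Neither genotype had a day 10 library that reached its lowest day 7 library.

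Between day 7 and day 10 most members fell in both genotypes, with larger median changes for enzymes than for pump genes. In WT, 26 of 40 fell and 1 rose past an adjusted p of 0.05 in edgeR's quasi-likelihood test, where 37% of the 14535 genes tested were called in either direction, 18.1% lower and 18.9% higher. In KO, 25 fell and 0 rose, where 36.8% of all genes were called, 17.1% lower and 19.7% higher. The median member changed by -0.52 in WT and -0.45 in KO on the log2 scale, beside medians of -0.015 and 0.0033 over all genes tested. The groups compared in the 2 genotypes share no library, but both tests come from the same fit with a pooled spread. Of the members, 23 fell in both genotypes, 11 were called in neither and 0 were called in opposite directions. In WT alone 4 were called (Ctsl, Atp6v0a1 and Atp6v1h lower, Ppt1 higher), and in KO alone 2 (Tpp1 and Atp6v0b lower). In WT, all 3 day 10 libraries were below all 3 day 7 libraries for 32 members, beside 26.7% of all genes, and in KO for 23 members, beside 20.7% of all genes. Scaling mattered for the count: with total counts in place of TMM factors, where the median of all genes itself lay at 0.22 in both genotypes, 18 members fell and 4 rose in WT and 19 fell and 3 rose in KO, beside 45.2% and 45.6% of all genes called. On deposited TPM values, with that median at 0.21 in WT and 0.25 in KO, the split was 17 lower and 5 higher in WT, and 16 lower and 4 higher in KO, beside 47.3% and 51.6% of all genes called. Relative to the median of all genes, 36, 36 and 35 members lay lower in WT under the 3 scalings and 37, 38 and 36 in KO. Without mouse 63 or without mouse 66, 16 members were called in WT, beside 24.3% and 22.5% of all genes. Without the libraries labelled 64, 14 were called in KO, beside 22% of all genes, and Ctsb, Tpp1, Gla, Glb1, Mcoln1, Tfeb, Tfe3, Atp6v0b, Atp6v1b2, Atp6v1c1 and Atp6v1g1 were lost. In these bulk samples, fewer cells of a type and less RNA per cell cannot be told apart.

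**Figure D1:**
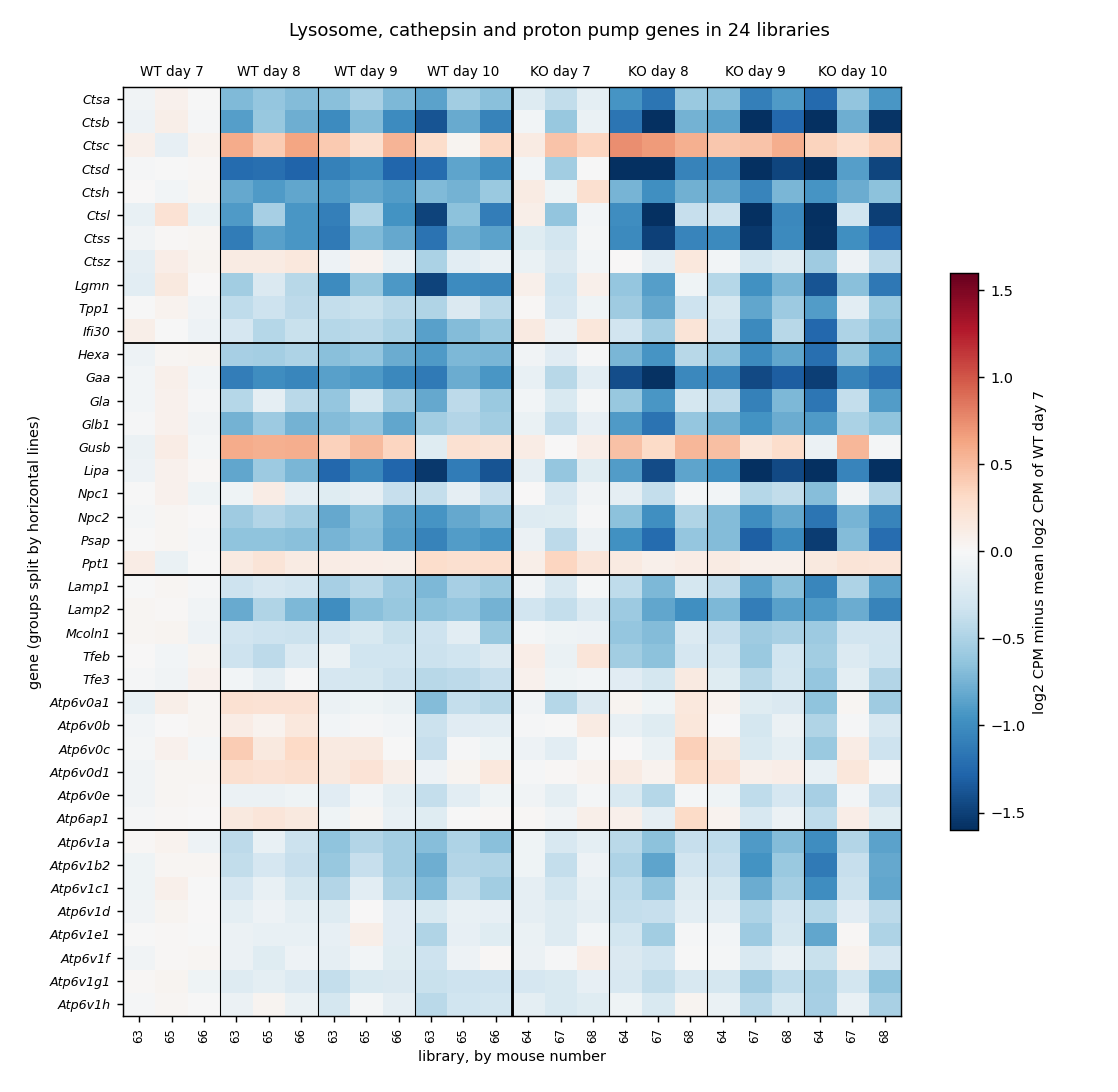
Log2 CPM of each of the 40 genes (rows, grouped by role) in each of the 24 libraries (columns, by genotype and day), minus the mean of the 3 WT day 7 libraries of that gene. Most protease and hydrolase rows are lower from day 8 on in both genotypes, pump rows differ less, and within KO the library labelled 67 on days 7 to 9 and 64 on day 10 is the lowest column for most genes.

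The members are given next by role, to be read against the 18.1% of all genes called lower in WT and 17.1% in KO. Of the 11 proteases, 8 fell in WT (median log2 change -0.72) and 8 in KO (-0.91). Their medians were -0.48 and -0.69 with total counts and -0.44 and -0.60 on TPM, where 7 fell and 1 rose in each genotype. Of the 10 hydrolase and lipid-handling genes, 7 fell and 1 rose in WT (median -0.69), and 7 fell in KO (-0.74). Their medians were -0.46 and -0.53 with total counts and -0.41 and -0.46 on TPM, where 6 fell and 2 rose in each genotype. The 5 membrane proteins and regulators fell in both genotypes, with medians of -0.41 in WT and -0.43 in KO. Of the 8 V1 genes, 5 fell in WT (median -0.34) and 4 in KO (-0.27). Of the 6 V0 genes, 1 fell in each genotype, a share near that of all genes, with medians of -0.17 in WT and -0.16 in KO that turned positive (0.06 and 0.05) with total counts and (0.10 and 0.12) on TPM. The V1 median stayed negative under total counts and turned to 0.01 in KO on TPM. With total counts 3 V1 genes fell in each genotype, and on TPM 2 fell in WT and 1 in KO. Other markers differed over the same days. Dendritic cell markers summed to 2853 to 3566 CPM on day 7 and 6049 to 8086 CPM on day 10 in WT, and to 3221 to 3949 and 5343 to 9316 CPM in KO. Within it, the invariant chain gene Cd74 stood at 778 to 1113 and then 2194 to 3475 CPM in WT, and Itgax, which encodes CD11c, at 1068 to 1315 and then 1148 to 1661 CPM. The regulator genes of the list did not go one way in WT: Zbtb46 (2.15 to 3.29 and then 10.9 to 12.2 CPM), Irf4 (38.1 to 43.4 and then 109 to 124 CPM) and Ciita (15.01 to 16.9 and then 109.6 to 129 CPM) were higher on day 10, and Irf8 (234 to 245 and then 134 to 139 CPM) and Batf3 (8.85 to 11.04 and then 4.52 to 5.84 CPM) were lower. In WT, macrophage markers summed to 4074 to 4290 and 3064 to 3308 CPM, and 9 cycling markers to 303 to 328 and 918 to 1160 CPM. Their part in the result was not tested.

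Lipa encodes lysosomal acid lipase, which frees cholesterol and fatty acids from lipoprotein esters. The gene (ENSMUSG00000024781.16) lies on chr19:34492318-34527474, reverse strand, in GENCODE M21 coordinates of GRCm38. In WT, Lipa was at 2102, 2349 and 2252 CPM on day 7, 1254, 1494 and 1348 on day 8, 936, 1095 and 930.3 on day 9 and 765, 1029.6 and 856 on day 10. In KO, it was at 2024, 1449 and 1956 CPM on day 7, 1204, 829 and 1242 on day 8, 1135, 601 and 819 on day 9 and 503, 1077 and 639 on day 10. In both genotypes every day 10 library was below every day 7 library, and the KO library labelled 67 on day 10 stood highest of its group. Lipa fell by 60.5% in WT, a log2 change of -1.34 (SE 0.24, adjusted p = 0.00020), and by 59.1% in KO, a log2 change of -1.29 (SE 0.24, adjusted p = 0.00032).

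Among proteases, Ctsd, Ctss, Ctsb and Lgmn fell in both genotypes. Ctsd (ENSMUSG00000007891.16, chr7:142375911-142388038, reverse strand) encodes the main aspartic protease of the lysosome. In WT, Ctsd was at 12870.0, 13026 and 13236 CPM on day 7, 5577, 5674 and 5374 on day 8, 6149, 6550.0 and 5401 on day 9 and 5571, 7265 and 6569.9 on day 10. In KO, Ctsd was at 12708, 8872 and 13007 CPM on day 7, 4193, 3066 and 6219.9 on day 8, 6226, 3403 and 4718 on day 9 and 3104, 7089.9 and 4699 on day 10. Day 7 stood above all later days in both genotypes without overlap, and days 8 and 10 overlapped. Its log2 change from day 7 to day 10 was -1.01 (SE 0.26, adjusted p = 0.0047) in WT and -1.22 (SE 0.26, adjusted p = 0.0012) in KO. The WT calls of Ctsd and Ctsb were lost without mouse 63 and without mouse 66.

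Ctss (ENSMUSG00000038642.10, chr3:95526786-95556403, forward strand) encodes the protease that makes the last cut in the invariant chain of MHC class II in dendritic cells. In WT, Ctss was at 7103, 7437 and 7537 CPM on day 7, 3384, 4043 and 3859 on day 8, 3349.8, 4524 and 4187 on day 9 and 3236, 4325 and 4078 on day 10. In KO, Ctss was at 6445, 6021 and 7189.8 CPM on day 7, 3633, 2618 and 3548 on day 8, 3619, 2531 and 3627 on day 9 and 2465, 3712 and 3072 on day 10. As for Ctsd, every day 7 library was above every day 8 and day 10 library, while days 8 and 10 overlapped. Its log2 change was -0.92 (SE 0.17, adjusted p = 0.00027) in WT and -1.09 (SE 0.17, adjusted p = 6.7e-05) in KO. Ctsb (ENSMUSG00000021939.8, chr14:63122462-63145923, forward strand) encodes another abundant cysteine protease. In WT, Ctsb was at 14471, 16424 and 15203 CPM on day 7, 8314, 10045 and 8959 on day 8, 7660.1, 9459.8 and 7622 on day 9 and 5915, 8774 and 7314 on day 10. In KO, Ctsb was at 14826, 10054 and 14294 CPM on day 7, 6806, 4586 and 9054 on day 8, 8488, 4762 and 6414 on day 9 and 3884, 8943 and 5191 on day 10. Day 7 did not overlap day 10 in either genotype, and the KO day 10 values spread widely, with the library labelled 67 the highest. Ctsb changed by -1.07 (SE 0.27, adjusted p = 0.0042) in WT and -1.12 (SE 0.27, adjusted p = 0.0031) in KO.

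Lgmn (ENSMUSG00000021190.14, chr12:102394084-102439813, reverse strand) encodes legumain, the asparaginyl endopeptidase that also processes other cathepsins. In WT, Lgmn was at 817, 1024 and 919.6 CPM on day 7, 626, 781 and 676 on day 8, 456, 599.6 and 485 on day 9 and 328, 457 and 447 on day 10. In KO, Lgmn was at 969, 737 and 969.6 CPM on day 7, 598, 497 and 875 on day 8, 669, 469 and 552 on day 9 and 353, 578 and 415 on day 10. WT libraries of day 7, day 8 and day 10 did not overlap, and in KO day 7 did not overlap day 10. The log2 change was -1.16 (SE 0.21, adjusted p = 0.00019) in WT and -0.99 (SE 0.21, adjusted p = 0.00086) in KO. Ctsl (ENSMUSG00000021477.9, chr13:64359337-64370890, reverse strand) encodes cathepsin L. In WT, Ctsl was at 2909, 3689 and 2928 CPM on day 7, 1685, 2181 and 1651 on day 8, 1479, 2245 and 1627 on day 9 and 1134, 1999.8 and 1467 on day 10. In KO, Ctsl was at 3377, 2042 and 3070.4 CPM on day 7, 1584, 1016 and 2446 on day 8, 2492, 825 and 1543 on day 9 and 697, 2519.7 and 1113 on day 10. Days 7 and 10 were separate in WT and overlapped in KO, where the library labelled 67 was low on day 7 and high on day 10. Ctsl passed the threshold narrowly in WT (log2 -1.05, SE 0.41, adjusted p = 0.048) and did not in KO (log2 -0.97, SE 0.41, adjusted p = 0.068), and the WT call was lost with DESeq2 size factors, total counts, TPM and without mouse 63, 65, 66 or 68. It held with a term for the WT mice alone and was lost when KO numbers were blocked as well. The KO value was called with no count filter, with Xist level as covariate, with exchanged KO numbers and without the libraries labelled 67.

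Ifi30 (ENSMUSG00000031838.8, chr8:70762774-70766663, reverse strand) encodes GILT, the thiol reductase that opens disulfide bonds of antigen. In WT, Ifi30 was at 328, 305 and 291 CPM on day 7, 256, 224 and 239 on day 8, 224, 228 and 216 on day 9 and 169, 190.4 and 202 on day 10. In KO, Ifi30 was at 340.1, 289 and 349 CPM on day 7, 248, 211 and 354 on day 8, 242, 152 and 227 on day 9 and 129, 219 and 193 on day 10. The WT libraries of days 7, 8 and 10 did not overlap, and in KO days 7 and 10 did not overlap. Ifi30 fell by 0.72 on the log2 scale in WT (SE 0.18, adjusted p = 0.0045) and by 0.86 in KO (SE 0.19, adjusted p = 0.0012), and the WT call was lost without mouse 63. Among the remaining proteases, Ctsa (-0.69 in WT and -0.67 in KO) and Ctsh (-0.68 and -0.91) fell in both genotypes, and Tpp1, a tripeptidyl peptidase, fell in KO (-0.42) and stood at -0.38 in WT without passing, although 7 alternatives called it there, among them the DESeq2 Wald test. The KO call of Tpp1 was lost with total counts, on TPM, with only the groups compared, with the mouse number as a block and without 63, 64, 65, 66 or 68. Ctsz stood at -0.26 and -0.22 without passing the test. Exons of Ctsa overlap those of Pltp on the opposite strand, whose counts were 7.86% of those of Ctsa and whose own log2 change was -2.54 in WT and -2.93 in KO. The strand setting of the counting was not given in the sources used here.

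The dipeptidyl peptidase gene Ctsc, which activates granule serine proteases, rose between days 7 and 8 while 6 of the 11 proteases fell; it was singled out after its values were seen. Ctsz stood at 0.14 in WT and 0.14 in KO over the same step without passing, and was called higher in both with total counts and on TPM. In WT, Ctsc was at 496, 427 and 485 CPM on day 7, 709, 623 and 727 on day 8, 628, 558 and 681 on day 9 and 571, 483 and 589 on day 10. In KO, Ctsc was at 513, 639.9 and 592 CPM on day 7, 784, 748 and 696 on day 8, 630.4, 639.9 and 699 on day 9 and 599.5, 563 and 610.1 on day 10. Day 8 was above day 7 without overlap in both genotypes, and days 7 and 10 overlapped. From day 7 to day 8 it rose by 0.55 (SE 0.10, adjusted p = 0.00017) in WT and 0.35 (SE 0.100, adjusted p = 0.0076) in KO, and from day 7 to day 10 it stood at 0.22 and 0.022 without passing the test, although the WT value passed with the mouse as a block, whether for the WT mice alone or for both genotypes, with total counts and on TPM. The KO day 10 value passed on TPM. The KO call between days 7 and 8 was lost without the libraries labelled 64.

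Among hydrolases, Gaa and the cholesterol carrier gene Npc2 fell with Lipa. Gaa (ENSMUSG00000025579.14, chr11:119267887-119285454, forward strand) encodes acid alpha-glucosidase, which breaks down glycogen. In WT, Gaa was at 212, 231 and 212 CPM on day 7, 102, 109.8 and 106 on day 8, 119.6, 116 and 106 on day 9 and 99.4, 125 and 114 on day 10. In KO, Gaa was at 201, 160.0 and 195 CPM on day 7, 81.3, 72.97 and 106 on day 8, 105, 80.5 and 87.3 on day 9 and 76.7, 104 and 94.7 on day 10. Every library of day 8 or day 10 was below every library of day 7, and on days 7 and 9 every KO library was below every WT library. The log2 change was -0.95 (SE 0.13, adjusted p = 1.7e-05) in WT and -1.01 (SE 0.13, adjusted p = 9.9e-06) in KO.

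Npc2 (ENSMUSG00000021242.9, chr12:84754562-84773152, reverse strand) encodes the soluble protein that hands cholesterol to the membrane protein NPC1. In WT, Npc2 was at 1187, 1239 and 1228 CPM on day 7, 824, 878 and 838 on day 8, 692, 770.0 and 679.6 on day 9 and 633, 691 and 736 on day 10. In KO, Npc2 was at 1060.2, 1064 and 1205 CPM on day 7, 773, 615 and 876 on day 8, 750.4, 611 and 689 on day 9 and 542, 728 and 587 on day 10. Days 7, 8 and 10 were separate in WT, and day 7 was separate from days 8 and 10 in KO. Npc2 changed by -0.83 (SE 0.12, adjusted p = 2.3e-05) in WT and -0.84 (SE 0.12, adjusted p = 2.2e-05) in KO. Its partner Npc1 (ENSMUSG00000024413.14) was read next. In WT, Npc1 was at 511, 536 and 489 CPM on day 7, 489, 555 and 462 on day 8, 448, 464 and 398 on day 9 and 394, 463 and 397 on day 10. In KO, Npc1 was at 514, 428 and 492 CPM on day 7, 461, 393 and 499 on day 8, 497, 374 and 389.7 on day 9 and 320.2, 491 and 369 on day 10. The ranges of days 7 and 10 did not overlap in WT and overlapped in KO. Npc1 did not pass the test in WT (log2 -0.29, SE 0.14, adjusted p = 0.10) or KO (log2 -0.28, SE 0.14, adjusted p = 0.12), and reads of the opposite-strand gene Rmc1, at 13.2% of its counts, overlap its exons. Rmc1 stood at 0.19 in WT and 0.18 in KO from day 7 to day 10 without passing. From day 7 to day 8 Rmc1 rose by 0.71 in WT and 0.48 in KO.

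Ppt1 (ENSMUSG00000028657.14, chr4:122836242-122859175, forward strand) encodes palmitoyl-protein thioesterase, which removes fatty acids from proteins, and was the member that rose from day 7 to day 10 in WT. In WT, Ppt1 was at 151, 129 and 139 CPM on day 7, 154, 161 and 153 on day 8, 152, 150.2 and 149 on day 9 and 170.0, 166 and 169 on day 10. In KO, Ppt1 was at 149, 177 and 159.8 CPM on day 7, 155, 148 and 151 on day 8, 152, 148 and 147 on day 9 and 156, 161 and 160.1 on day 10. The WT days 7, 8 and 10 did not overlap, KO days 7 and 10 did, and on day 10 every KO library was below every WT library. Ppt1 changed by 0.27 (SE 0.060, adjusted p = 0.0016) in WT and -0.028 (SE 0.060, adjusted p = 0.75) in KO. The difference of these changes, KO minus WT, was -0.30 (SE 0.085, adjusted p = 0.45), the smallest adjusted p of the members in that comparison, and did not pass. Exons of Ppt1 overlap those of Cap1 on the opposite strand, whose counts were 515% of those of Ppt1 and whose log2 change in WT was -0.071 (adjusted p = 0.41). Scaling turned the KO value of Ppt1, which became 0.19 (adjusted p = 0.047) with total counts and 0.28 (adjusted p = 0.0052) on TPM.

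The remaining hydrolase genes were Hexa, Gla, Glb1 and Gusb, for subunits or enzymes that remove sugars from glycolipids and glycans, and Psap. Hexa (-0.78 in WT and -0.81 in KO), Gla (-0.60 and -0.67), Glb1 (-0.53 and -0.47) and Psap (-0.97 and -0.90) fell in both genotypes from day 7 to day 10. The WT call of Gla was lost with total counts, on TPM and without mouse 63 or 66, and its KO call without 64 or 68. The KO call of Glb1 was lost on TPM and without 64. Glb1 shares exons with Tmppe on the same strand, at 15.6% of its counts. Tmppe stood at 0.17 in WT and 0.18 in KO from day 7 to day 10 without passing the test. From day 7 to day 8 Tmppe rose by 0.64 in WT and 0.36 in KO. Gusb, which encodes beta-glucuronidase and was singled out after its values were seen, peaked on day 8. In WT, Gusb was at 379.8, 439 and 396 CPM on day 7, 611, 598 and 603 on day 8, 521, 575 and 514 on day 9 and 355, 478 and 466 on day 10. In KO, Gusb was at 437, 405 and 437 CPM on day 7, 558, 499.7 and 583 on day 8, 566, 457 and 489 on day 9 and 380.1, 583 and 397 on day 10. Day 8 lay above day 7 without overlap in both genotypes, and the WT day 8 libraries lay above the KO day 8 libraries. Gusb rose from day 7 to day 8 by 0.58 (SE 0.13, adjusted p = 0.0016) in WT and 0.36 (SE 0.13, adjusted p = 0.036) in KO, and its day 10 value stood at 0.097 and 0.089 against day 7 without passing the test. With total counts and on TPM that day 10 value was called higher in both genotypes. The KO day 8 call of Gusb was lost without 64, 65, 66 or 68.

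**Figure D2:**
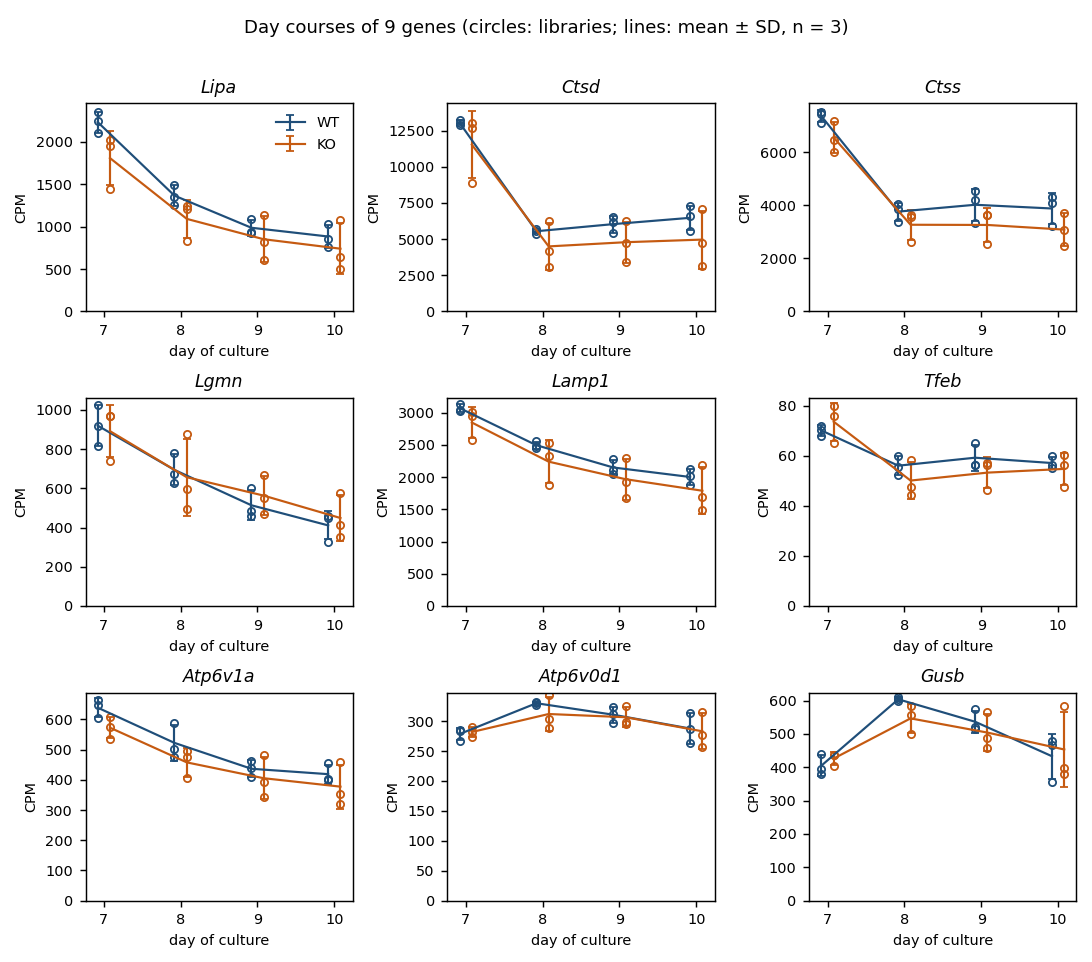
CPM (vertical axis of each panel) of 9 genes against day of culture (horizontal axis) in WT and KO. Circles are libraries and lines join the mean ± SD of 3 libraries per group; Lipa, Ctsd, Ctss, Lgmn, Lamp1 and Atp6v1a are lower on day 10 than on day 7 in both genotypes, and Gusb is highest on day 8.

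The plotted courses include membrane proteins and regulators, whose median change was smaller than that of the enzymes. Lamp1 and Lamp2 encode the glycoproteins that line the lysosomal membrane. Lamp1 (ENSMUSG00000031447.7, chr8:13159161-13175338, forward strand) was in WT at 3046, 3143 and 3028 CPM on day 7, 2447, 2558 and 2480.4 on day 8, 2118, 2280.0 and 2051 on day 9 and 1872, 2122 and 2012 on day 10. In KO, Lamp1 was at 2954, 2578 and 3010.0 CPM on day 7, 2322, 1870.1 and 2527 on day 8, 2304, 1670.0 and 1929.8 on day 9 and 1489, 2190.3 and 1686 on day 10. The WT libraries of days 7, 8 and 10 were separate, day 7 was separate from days 8 and 10 in KO, and on day 7 KO lay below WT without overlap. Its log2 change was -0.62 (SE 0.13, adjusted p = 0.0011) in WT and -0.67 (SE 0.13, adjusted p = 0.00060) in KO. Lamp2 (ENSMUSG00000016534.15, chrX:38401357-38456454, reverse strand) was in WT at 996, 989 and 942 CPM on day 7, 560.0, 697 and 595 on day 8, 489, 613 and 642 on day 9 and 618, 638 and 579 on day 10. In KO, Lamp2 was at 789, 751 and 839 CPM on day 7, 654, 550.1 and 493 on day 8, 595, 455 and 535 on day 9 and 519, 561 and 466 on day 10. Days 8 and 10 overlapped in both genotypes and stood below day 7, and KO stood below WT on days 7 and 10 without overlap. The change was -0.67 (SE 0.12, adjusted p = 0.00020) in WT and -0.62 (SE 0.12, adjusted p = 0.00048) in KO.

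Mcoln1 (ENSMUSG00000004567.16, chr8:3500457-3515232, forward strand) encodes the lysosomal calcium channel TRPML1. In WT, Mcoln1 was at 104, 105 and 95.4 CPM on day 7, 81.97, 80.3 and 80.04 on day 8, 81.5, 85.8 and 79.4 on day 9 and 80.7, 90.3 and 66.2 on day 10. In KO, Mcoln1 was at 98.8, 96.1 and 95.8 CPM on day 7, 65.8, 62.7 and 86.8 on day 8, 78.4, 68.4 and 70.5 on day 9 and 67.5, 81.8 and 81.9 on day 10. Day 7 lay above day 10 without overlap in both genotypes. The change was -0.36 (SE 0.11, adjusted p = 0.015) in WT and -0.33 (SE 0.11, adjusted p = 0.023) in KO. Tfeb (ENSMUSG00000023990.18, chr17:47737030-47792419, forward strand) encodes the transcription factor that activates lysosomal genes. In WT, Tfeb was at 70.3, 68.02 and 72.1 CPM on day 7, 55.7, 52.4 and 60.1 on day 8, 65.2, 56.2 and 56.4 on day 9 and 55.1, 56.4 and 59.96 on day 10. In KO, Tfeb was at 75.8, 65.2 and 79.9 CPM on day 7, 47.5, 44.5 and 58.4 on day 8, 57.2, 46.3 and 56.5 on day 9 and 47.7, 60.4 and 56.2 on day 10. Day 7 stood above days 8 and 10 without overlap, and days 8 and 10 overlapped. Tfeb changed by -0.30 (SE 0.11, adjusted p = 0.036) in WT and -0.43 (SE 0.11, adjusted p = 0.0040) in KO.

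Tfe3 (ENSMUSG00000000134.17, chrX:7762560-7775202, forward strand) encodes the related factor. In WT, Tfe3 was at 136, 132 and 145 CPM on day 7, 133, 125 and 136 on day 8, 114, 113 and 109 on day 9 and 101, 103 and 107 on day 10. In KO, Tfe3 was at 145, 132 and 134 CPM on day 7, 122, 113 and 152 on day 8, 120.1, 101 and 112 on day 9 and 89.8, 124 and 99.3 on day 10. Days 7 and 8 overlapped in both genotypes, and day 10 stood below day 7. The change from day 7 to day 10 was -0.41 (SE 0.10, adjusted p = 0.0036) in WT and -0.39 (SE 0.10, adjusted p = 0.0053) in KO. The WT calls of Mcoln1 and Tfeb were lost without mouse 63 or 66, and that of Tfe3 without mouse 66. The WT call of Tfeb was also lost without mouse 65 and with no count filter. In KO, the call of Tfe3 was lost with only the groups compared. The calls of Mcoln1, Tfeb and Tfe3 were lost in both genotypes on TPM and with total counts, where the median of the 5 genes of this role was -0.17 in WT and -0.21 in KO.

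Of the 14 pump genes, 6 fell in WT (Atp6v0a1, Atp6v1a, Atp6v1b2, Atp6v1c1, Atp6v1g1 and Atp6v1h) and 5 in KO (Atp6v0b, Atp6v1a, Atp6v1b2, Atp6v1c1 and Atp6v1g1), beside 18.1% and 17.1% of all genes called lower. Atp6v1a (ENSMUSG00000052459.13, chr16:44085402-44139705, reverse strand) encodes the subunit A of V1, which holds the ATP-hydrolysing sites together with subunit B. In WT, Atp6v1a was at 648, 666 and 604 CPM on day 7, 477, 589 and 501 on day 8, 408, 463 and 439 on day 9 and 399.7, 455 and 401 on day 10. In KO, Atp6v1a was at 608, 537 and 574 CPM on day 7, 474, 405 and 494 on day 8, 481, 342 and 394 on day 9 and 320.4, 459.9 and 352 on day 10. The WT days 7, 8 and 10 were separate, and day 7 was separate from days 8 and 10 in KO. Atp6v1a changed by -0.61 (SE 0.13, adjusted p = 0.00099) in WT and -0.60 (SE 0.13, adjusted p = 0.0012) in KO. Atp6v1b2, for subunit B, fell too (-0.57 and -0.56), as did Atp6v1c1, for the stalk subunit C (-0.55 and -0.51). Atp6v1g1, for subunit G, fell by 0.34 in WT and by 0.27 in KO on the log2 scale, and this call was lost with total counts and on TPM in both, and in KO also with only the groups compared and without 64 or 68. In WT the call of Atp6v1b2 was lost on TPM and without mouse 63, 65 or 66, and that of Atp6v1c1 without mouse 63 or 66. In KO the calls of both were lost on TPM, with only the groups compared and without 64 or 68.

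Atp6v1h (ENSMUSG00000033793.12, chr1:5070018-5162529, forward strand) encodes the regulatory subunit H. In WT, Atp6v1h was at 103, 107 and 104 CPM on day 7, 97.4, 107 and 96.8 on day 8, 85.9, 102 and 94.6 on day 9 and 77.2, 83.4 and 85.1 on day 10. In KO, Atp6v1h was at 93.6, 87.8 and 91.5 CPM on day 7, 99.2, 88.4 and 108 on day 8, 96.99, 77.1 and 87.9 on day 9 and 72.4, 96.5 and 72.6 on day 10. Days 7 and 10 were separate in WT and overlapped in KO, and on day 7 KO lay below WT without overlap. The change was -0.35 (SE 0.10, adjusted p = 0.011) in WT and -0.18 (SE 0.10, adjusted p = 0.19) in KO, and the WT call was lost with total counts, on TPM and without mouse 63, 65 or 66. The V1 genes Atp6v1d, Atp6v1e1 and Atp6v1f stood between -0.26 and -0.12 in WT and between -0.27 and -0.17 in KO, none of them called.

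In the V0 sector, Atp6v0d1 (ENSMUSG00000013160.7, chr8:105524465-105566047, reverse strand) encodes the subunit d that couples V0 to the rotor of V1. In WT, Atp6v0d1 was at 267, 283 and 285 CPM on day 7, 331, 328 and 331 on day 8, 312, 324 and 297 on day 9 and 263, 286 and 314 on day 10. In KO, Atp6v0d1 was at 274, 282 and 290.2 CPM on day 7, 304, 289 and 343 on day 8, 326, 295 and 299 on day 9 and 256, 315 and 278 on day 10. Day 8 was above days 7 and 10 in WT without overlap, and in KO the days overlapped. Its net change was 0.047 (SE 0.081, adjusted p = 0.69) in WT and 0.0061 (SE 0.081, adjusted p = 0.96) in KO. With total counts it was called higher, at 0.28 (adjusted p = 0.0010) and 0.22 (adjusted p = 0.0063), and on TPM at 0.33 (adjusted p = 6.5e-05) and 0.31 (adjusted p = 0.00011). From day 7 to day 8 it rose in WT by 0.25 (SE 0.081, adjusted p = 0.019), a call that was lost without mouse 63, 65 or 66. The subunit a gene Atp6v0a1 stood at 0.23 on day 8 and fell to -0.50 on day 10 against day 7 in WT, whereas its KO values were 0.29 and -0.12 with neither called. The WT call of Atp6v0a1 was lost with total counts, on TPM and without mouse 63, 65 or 66. The KO minus WT difference in its net change was 0.38 (SE 0.20, adjusted p = 0.83). The membrane ring genes Atp6v0b and Atp6v0c stood at -0.23 and -0.14 in WT and at -0.27 and -0.15 in KO, with Atp6v0b called in KO. That call was lost with total counts, on TPM, with no count filter, with only the groups compared, with the mouse number as a block and without 63, 64, 65, 66 or 68. Atp6v0e stood at -0.20 and -0.22, and Atp6ap1, an accessory protein of the pump, at -0.055 and -0.17, neither called.

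**Figure D3:**
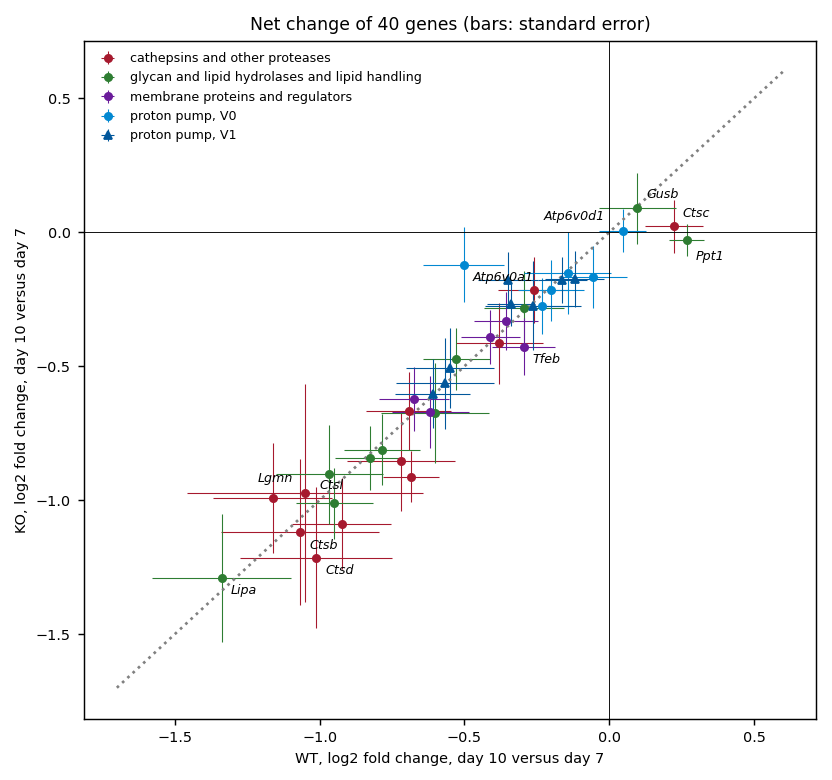
Log2 change from day 7 to day 10 in KO (vertical axis) against that in WT (horizontal axis) for the 40 genes, coloured by role, with bars of 1 SE. Lipa lies at the lower left, the 14 pump genes lie between -0.61 and 0.05 in WT with 13 of them below 0, and Ppt1 (0.27 in WT and -0.03 in KO) and Ctsc (0.22 and 0.02) lie to the right.

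With TMM factors, much of the median fall to day 10 was already present on day 8. From day 7 to day 8, 15 members fell and 4 rose in WT (43.4% of all genes called, 22% lower and 21.5% higher), and 18 fell and 2 rose in KO (42% called, 20.9% lower and 21.1% higher). In WT all day 8 libraries were below all day 7 libraries for 28 members and above them for 9, beside 30% and 29.8% of all genes, and in KO for 18 and 2, beside 23.6% and 23%. The members' medians were -0.31 in WT and -0.34 in KO, beside -0.0038 and 0.0018 over all genes. With total counts the split was 12 lower and 9 higher in WT and 15 lower and 8 higher in KO, beside 46.4% and 44.5% of all genes called. On TPM it was 10 and 9 in WT and 12 and 8 in KO, beside 46.8% and 46%. Proteases gave 6 of the falls in each genotype, led by Ctsd (-1.23 in WT and -1.36 in KO), Ctss (-0.97 and -1.004) and Ctsh (-0.85 and -0.94). Among pump genes, 0 fell and 1 rose in WT (Atp6v0d1), and 1 fell and 0 rose in KO (Atp6v1a, log2 -0.32, SE 0.13, adjusted p = 0.0498), a call that was lost with DESeq2 size factors, total counts, TPM and any mouse number left out. Scaling decided the V0 count: with total counts, as on TPM, 5 of the 6 V0 genes were called higher in WT and 4 in KO. With a term for the WT mice alone, all 19 WT calls between days 7 and 8 held, and those of Tpp1 and Ppt1 were lost when KO numbers were blocked as well. Without mouse 63, 65 or 66, 12, 10 or 11 members were called in WT between days 7 and 8, beside 30.2%, 31.6% and 30.8% of all genes. Without the libraries labelled 67, 29 were called, beside 47.9%.

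The later steps were smaller. In edgeR's test 0 members were called from day 8 to day 9 in WT (5.4% of all genes called), from day 9 to day 10 in WT (3.6%), from day 8 to day 9 in KO (2.33%) or from day 9 to day 10 in KO (0.0963%). Counts at an unadjusted p below 0.05 were 3, 3, 1 and 0, beside 21.8%, 17.7%, 18.7% and 12% of all genes, and the DESeq2 Wald test also called 0 in each. With only the libraries of the groups compared, 6 members were called in WT from day 8 to day 9 (beside 14.7% of all genes) and 1 from day 9 to day 10 (beside 5.35%). All WT day 9 libraries were below all day 8 libraries for 17 members, beside 16.3% of all genes, and all day 10 libraries below all day 9 libraries for 9, beside 11.9%. The last KO step depended on single libraries: without those labelled 67, 22 members were called lower from day 9 to day 10 with a median of -0.36, beside 14.4% of all genes called in either direction, and without those labelled 64 the median was 0.15 with 0 called. The highest of the 4 day means was on day 7 for 31 members in WT and 32 in KO, and on day 8 for 8 in each. The lowest was on day 10 for 27 in WT and 29 in KO.

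The part of the fall present by day 8 was described member by member, with no test. For each of the 23 that fell in both genotypes, the day 8 change was expressed as a share of the net log2 change from day 7 to day 10. The 23 were chosen by that net change, and both changes use the same day 7 libraries. The median share was 66.6% in WT (17.04% to 132%) and 75.5% in KO (22.1% to 144%). It was above 100% for 6 members in each genotype, meaning a lower fitted level on day 8 than on day 10, a difference that was not tested, among them Glb1 (132% in WT and 144% in KO), Ctsd (122% and 112%), Gaa (110% and 108%) and Tfeb (109% and 130%). It was under 50% for 5 members in each genotype, among them Tfe3 (17.04% and 22.1%) and Lgmn (35.0% and 44.6%). Lipa (53.1% and 56.5%), Lamp1 (48.6% and 51.6%) and Atp6v1a (47.7% and 53.7%) lay nearer the middle. These shares depend on the scaling. With total counts the median was 64.1% in WT (-57.6% to 256%) and 78.1% in KO (-111% to 255%), and on TPM it was 58.4% in WT (-125% to 731%) and 80.9% in KO (-139% to 728%). In KO on TPM, 22 of the 23 members had a negative net change, so not every value there is a share of a fall. The number of members under 50% was 9 in WT and 7 in KO with total counts, and 10 and 8 on TPM.

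The genes with courses most like that of Lipa, the member with the largest called change in WT, included a membrane protein and a pump gene. Over the 8 group means of log2 CPM, the 5 highest Pearson correlations among all tested genes were with Atp6v1a (r = 0.999), Lamp1 (0.998), Tlnrd1 (0.996), Flvcr1 (0.995) and Cd68 (0.994). Among members Atp6v1b2 (0.991), Npc2 (0.989) and Gla (0.982) came next. These correlations describe 8 means that share the same libraries.

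KO and WT cultures were compared on each day to ask whether these genes differed between the genotypes. In edgeR's test 0 of 40 members were called on day 7, 8, 9 or 10, where 1.45%, 0.00688%, 0.00688% and 0.0138% of all genes were called, and 0 in the difference of the changes from day 7 to day 10 (0.0619% of all genes). Before adjustment, 4, 1, 2, 2 and 1 members had a p below 0.05, beside 15.7%, 5.91%, 8.15%, 7.3% and 6.31% of all genes. The DESeq2 Wald test called 2 on day 7, Ctsc and Ppt1, both higher in KO, and 0 in the other 4 comparisons. The smallest adjusted p of edgeR was that of Ppt1 on day 7 (log2 0.21, SE 0.060, adjusted p = 0.082), which passed without the libraries labelled 64 (0.29, adjusted p = 0.030). Fitted KO values were below WT for 31, 37, 37 and 35 of the 40 members on days 7 to 10, with medians of -0.11, -0.16, -0.12 and -0.11. The medians over all genes tested were -0.014, -0.0029, 0.00035 and 0.0024. For 28 members KO was below WT on every day, 10 of them pump genes, and for 1, Ctsc, it was above on every day. All KO libraries lay below all WT libraries for 13 members on day 7 (beside 14.2% of all genes), 5 on day 8 (4.99%), 2 on day 9 (6.47%) and 2 on day 10 (4.97%).

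**Figure D4:**
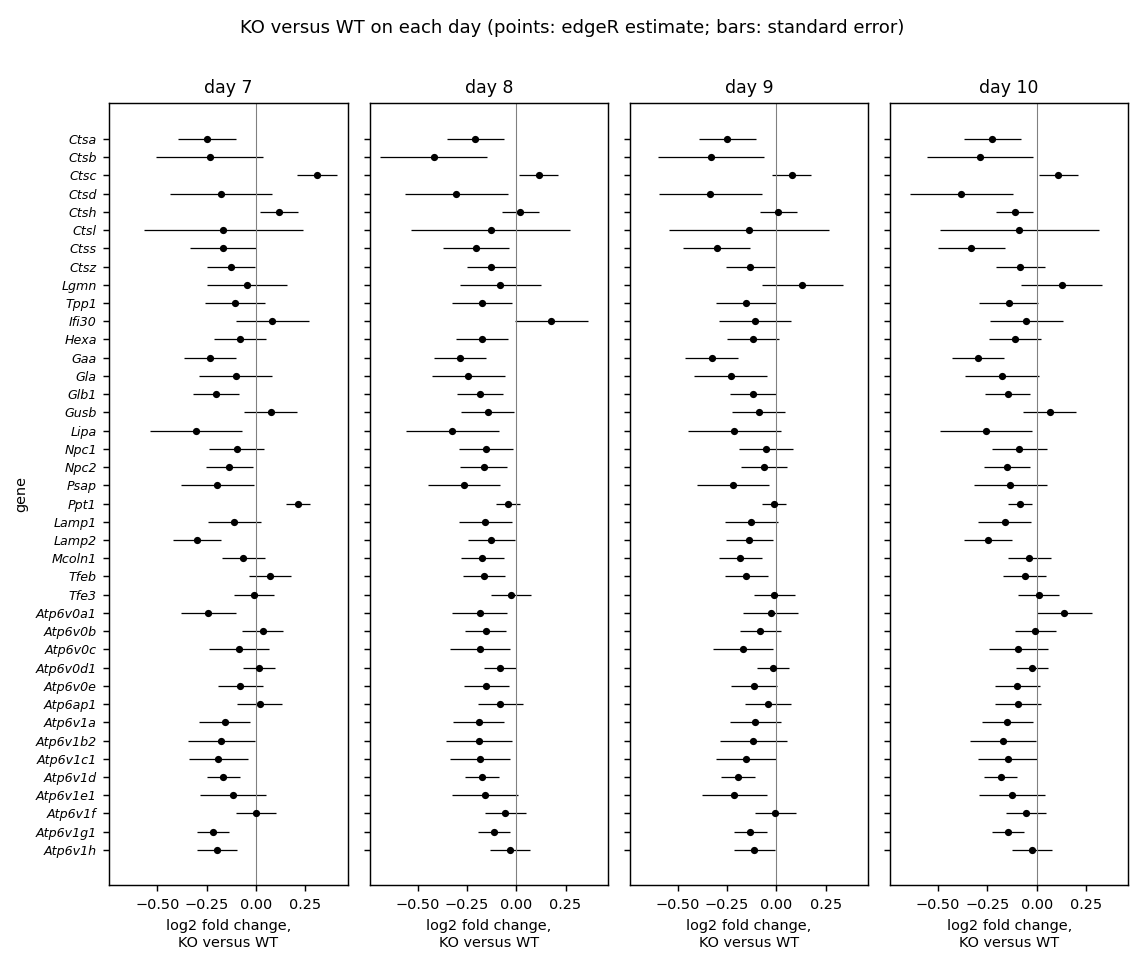
Log2 difference of KO from WT for the 40 genes on days 7, 8, 9 and 10, with bars of 1 SE. Most points lie below 0 on each day (31, 37, 37 and 35 of 40), and 0 pass the test.

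The size of the difference depended on single KO libraries on each day, and its direction on day 10. On day 10 the KO value was below WT for 35 members, for 15 without the library labelled 64 (median 0.03) and for 39 without that labelled 67 (median -0.27). On day 9 the count was 26 without the library labelled 67 (median -0.03), and on day 7 it was 27 without it (median -0.02). On day 8 it was 31 without the library labelled 67 (median -0.05) and 39 without that labelled 68 (median -0.27).

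The KO libraries that were low for lysosomal genes were high for cycling markers and for the sum of dendritic cell markers, and low for macrophage markers and for osteoclast markers, a list that holds the lysosomal genes Acp5, Ctsk and Atp6v0d2. On day 8 the library labelled 67 had a summed member level of 41964 CPM, 733 CPM of cycling markers and 5348 CPM of dendritic cell markers, and that labelled 68 had 65225, 334 and 3051 CPM. On day 9 the library labelled 67 had 40233, 1191 and 7467 CPM, and that labelled 64 had 61976, 654 and 3913 CPM. On day 10 the library labelled 64 had 35295, 1374 and 9316 CPM, and that labelled 67 had 63053, 720.3 and 5343 CPM. WT sums ran from 97372 to 102889 CPM on day 7 and from 47979 to 59043 CPM on day 10, so the KO day 10 libraries reached beyond the WT range on both sides. On days 8, 9 and 10 the low library had 3974, 3420 and 3248 CPM of macrophage markers and 530.2, 527 and 520.4 CPM of osteoclast markers, the lowest of its group in each case, whereas the highest library of the group had 923, 1074 and 1193 CPM of osteoclast markers. Itgax went against the dendritic cell sum: it was at 1013 CPM in the low library on day 9, beside 1287 and 1270.3 CPM, and at 924 CPM on day 10, beside 1609.9 and 1164 CPM. Monocyte genes of the macrophage list went against its sum. In the low library Ccr2 (522, 325, 235 and 299 CPM on days 7 to 10) and Vcan (59.0, 256, 115 and 71.8 CPM) were the highest of their group on each day. Ly6c2 was the highest of its group there on days 7, 8 and 9. On day 10 Ly6c2 was at 142 CPM in the low library, beside 146 CPM in that labelled 68. On day 7 the library labelled 67 also had the highest sum of neutrophil granule markers (7359 CPM, beside 3820 and 4915) and of mast cell and basophil markers (257 CPM, beside a group low of 86.3). The part of these markers in the spread was not tested. The coefficient of variation among replicates had a median of 19.8% over members in KO on day 10, beside 13.5% over all genes tested, and of 3.98% in WT on day 7, beside 7.62%.

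**Figure D5:**
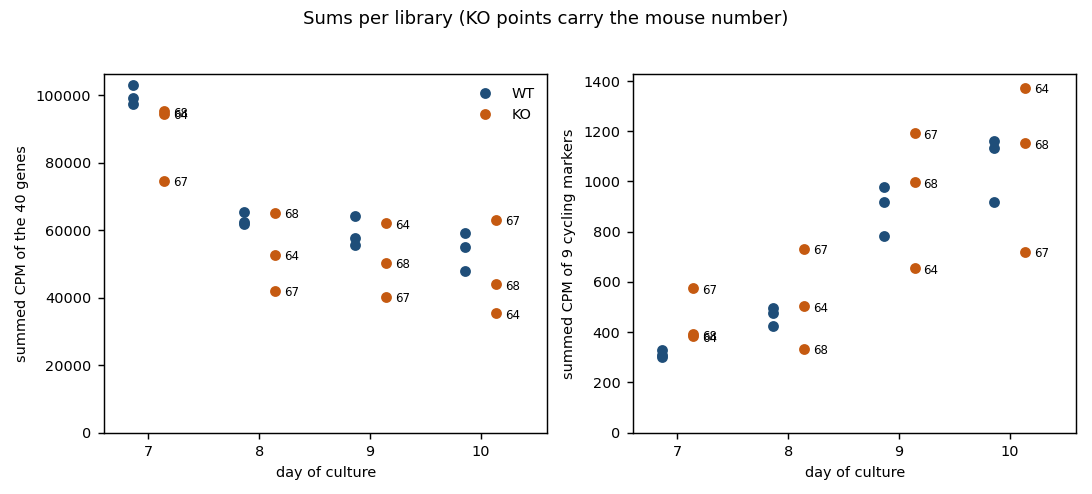
Summed CPM of the 40 genes and of 9 cycling markers (vertical axes) in each library by day (horizontal axis), with KO points labelled by the number on the library. In KO the library that is lowest for the sum of members on days 8, 9 and 10 (41964, 40233 and 35295 CPM) is the highest for cycling markers.

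Lysosomal genes outside the 40 were counted from lists; genes named from them were picked with their values known. Of 28 other hydrolases and cofactors, 18 fell and 2 rose (Manba and Arsb) from day 7 to day 10 in WT, and 18 fell and 0 rose in KO, with medians of -0.44 in each, beside 18.1% and 17.1% of all genes called lower. With total counts 11 fell and 5 rose in WT and 14 fell and 4 rose in KO, and on TPM 9 fell and 7 rose in WT and 12 fell and 5 rose in KO. Acp5, the tartrate-resistant acid phosphatase, changed by -1.30 in WT and -1.35 in KO. Of 26 other lysosomal membrane proteins tested, 12 fell and 3 rose in WT and 13 fell and 2 rose in KO, led by Slc11a1, a metal ion transporter (-1.41 and -1.26), and Mcoln3, a relative of Mcoln1 (-1.32 and -1.50). The medians of that list (-0.26 and -0.29) reached -0.024 and -0.069 with total counts and 0.023 and 0.017 on TPM, where 8 fell and 5 rose in WT and 9 fell and 5 rose in KO. Of 12 other pump subunits and partners tested, 3 fell in WT and 2 in KO, and Tcirg1, which encodes the a3 subunit, was at -0.79 in WT, where it was called, and -0.51 in KO, where it was not. In that list 3 were called higher and 1 lower in WT with total counts and on TPM, and 2 (total counts) or 3 (TPM) higher and 0 lower in KO. Of 21 sorting and biogenesis genes, 8 fell in WT and 7 in KO, and 0 rose, with medians of -0.16 and -0.17 that were positive with total counts (0.076 and 0.047). With total counts 4 rose and 2 fell in WT and 5 rose and 4 fell in KO, and on TPM 5 rose and 2 fell in WT and 7 rose and 2 fell in KO.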

How the data were processed

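Per the labels' protocols, poly(A)-selected RNA was sequenced in pairs from stranded libraries made with kits of 2 kinds, and which library used which kit was not given. Per the submitters' processing notes, FastQC 0.11.9, STAR 2.6.1 and DESeq2 1.22.2 were used with the build mm10; the counting tool and its strand setting are not given in the sources used here. The authors deposited raw counts per gene, as whole numbers, and TPM values per gene, which are scaled by gene length and library total. Counts are PCR-amplified reads without molecular identifiers.

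Genes were kept by filterByExpr (minimum count 10), which left 14535 of 55487. Counts were fitted with edgeR 4.0.16 in R 4.3.3 by quasi-likelihood with TMM factors, 8 group coefficients and all 24 libraries (16 residual degrees of freedom), and p-values were adjusted by Benjamini and Hochberg over all genes tested. Standard errors were derived from fold change and F statistic. The fit was tested on simulated data first. Alternatives were DESeq2 size factors, the DESeq2 1.42.0 Wald test, other count filters, only the groups compared, limma-trend (limma 3.58.1) on log2(TPM + 1), Xist level as covariate, a mouse block, leaving out each mouse number and, added after seeing the data, total counts alone, a block for the WT mice alone and exchanged KO numbers. P-values measure the spread between libraries within a group, with 3 mice per group. In the main fit that spread is pooled over all 8 groups, so the KO spread also enters the WT tests.

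The 40 members and all lists were chosen with earlier results of these data known. Values in every library were given for the 5 largest called rises and falls from day 7 to day 10 per genotype, any member called between genotypes, and 16 members named by symbol whatever their values. Positions are from GENCODE M21 on GRCm38, in which 55094 of 55487 identifiers were found, all members included. Promoter sequences are from RefSeq on GRCm38.p6. The mouse numbers in the labels recur on each day. Over 11111 genes, deviations of same-numbered libraries from group means had correlations of 0.149 to 0.737 in WT and -0.796 to 0.798 in KO. The numbers were therefore taken to follow mice across days in WT and not in KO. The main fit held no term for the mouse, so its day comparisons are unpaired in WT too. Pairing entered only in the alternatives with a block.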

Additional observations from a re-analysis of the deposited data

How the results depend on the processing

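Counts of called members and medians were recomputed under each alternative, and 190 of 210 values kept their size. The cause of the others was not tested. A count kept its size if it stayed within a set ratio of the main count, or if both were 0. The main count was 0 in the later steps and between genotypes. The genes called could still differ: with total counts, WT day 10 against day 7 lost 8 calls and gained 3. With only the libraries of the groups compared, 30 members were called in WT between days 7 and 8 (beside 51.9% of all genes), 6 between days 8 and 9 (Lgmn, Lipa, Npc2, Tfe3, Atp6v0a1 and Atp6ap1) and 1 between days 9 and 10 (Atp6v0a1), which limma-trend on TPM also called as 1. The DESeq2 Wald test called 2 members between KO and WT on day 7. The median member change from day 7 to day 10 in WT moved from -0.52 to -0.28 with total counts and to -0.23 on TPM, while the median of all genes moved up by a like amount. Ppt1 in KO reversed to 0.19 and 0.28 under these scalings.

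Leaving out each mouse number gave 16 to 30 called members for WT day 10 against day 7 (16 without 63 and without 66), 10 to 29 for WT day 8 against day 7, 0 to 3 for WT day 9 against day 8 and 0 to 1 for WT day 10 against day 9. It gave 14 to 36 for KO day 10 against day 7 (14 without 64, 36 without 67, beside 39.8% of all genes), 14 to 18 for KO day 8 against day 7, 0 to 0 for KO day 9 against day 8 and 0 to 22 for KO day 10 against day 9. Between genotypes it gave 0 to 1 on day 7 and 0 to 0 on the other days and in the difference of changes. Where 1 genotype loses a mouse the other enters the same pooled spread.

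With the mouse number as a replicate block, 27 members were called for WT day 10 against day 7 and 17 for WT day 8 against day 7. The same KO comparisons gave 23 and 18 members. The shares of all genes called were 37.3%, 43.4%, 36.5% and 41.6%, and 0 members were called elsewhere. Day comparisons used mouse terms in the edgeR fit. KO versus WT comparisons used a consensus correlation instead. It was 0.0046 over WT and KO numbers together, so it does not measure the pairing of WT mice. In WT the mouse terms lost the calls of Ctsl (day 10), Tpp1 and Ppt1 (day 8). With a block for the WT mice alone, added after seeing the data, 28 and 19 members were called in these WT comparisons (beside 37.2% and 43.4%) and 0 in the later steps: no WT call was lost, and Ctsc (day 10) was gained. With KO numbers exchanged on days 8 and 10, a pairing chosen after seeing the data, the KO counts were 33 and 26 (beside 44.6% and 50%), with 3 for day 9 against day 8 (13.2%) and 1 for day 10 against day 9 (5.95%). For the members named with all their libraries, 3723 of 3876 values kept their side of the threshold. Among these were 188 uncalled values whose sign changed. Of the rest, 95 lost a call and 56 gained one. The last 2, of Ppt1 in KO from day 7 to day 10, were uncalled in the main fit and were called with the opposite sign.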

Other observations

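Inhibitors of cathepsins were read from a list chosen with earlier results known. Of 10 cystatins, stefins and serpins tested, 6 rose and 0 fell from day 7 to day 10 in WT, beside 18.9% of all genes higher, and 4 rose and 1 fell in KO, beside 19.7% higher and 17.1% lower. With total counts 7 rose in WT and 5 in KO, on TPM 7 rose in each, and 0 fell. The count is not one of independent genes, since 4 of the 6 that rose in WT are stefin copies. Cst3, which encodes the secreted cystatin C, rose by 0.74 in WT and 0.68 in KO on the log2 scale. Serpinb1a, an inhibitor of granule proteases, rose by 1.63 and 1.05. The neutrophil-expressed stefin genes Stfa1 (3.11 in WT and 1.46 in KO) and Stfa2 (1.99 and 1.04) rose in both, and Stfa2l1 (2.02) and Stfa3 (1.86) rose in WT. Stefin genes are near-identical copies, so reads could be split among them and their single values are uncertain. Cstb, for stefin B, stood at -0.32 in WT and fell by 0.48 on the log2 scale in KO. Neutrophil granule markers summed to 3201 to 4753 CPM on day 7 and 5470 to 7351 CPM on day 10 in WT, and to 3820 to 7359 and 4758 to 6228 CPM in KO, where the days overlapped. Their part in the result was not tested.

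Of 5 other cathepsins tested, Ctse (-1.02 in WT and -1.01 in KO) and Ctsk (-1.02 and -1.21) fell in both genotypes, and Ctso (-0.30) fell in KO. Ctsg, a granule serine protease of myeloid precursors, rose by 1.05 in WT and stood at 0.0011 in KO, where the libraries labelled 67 had 24.4 CPM on day 7 and 7.75 CPM on day 10, and those labelled 64 and 68 had 6.94 and 12.8 CPM on day 7 and 16.01 and 20.3 CPM on day 10. Among 21 regulators, 8 fell and 1 rose in each genotype, beside 18.1% of all genes lower and 18.9% higher in WT and 17.1% and 19.7% in KO. Of the family of Tfeb and Tfe3, Mitf fell by 0.67 in WT and by 0.52 in KO on the log2 scale, whereas Tfec rose by 1.34 and 1.08. Gpnmb (-0.92 and -0.87) and the autophagy receptor gene Sqstm1 (-0.80 and -0.77) fell. With total counts, the regulators split into 5 lower and 5 higher in WT and 4 lower and 5 higher in KO, and on TPM into 5 lower and 6 higher in WT and 4 lower and 6 higher in KO.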
